A study of Mus musculus with 7 samples.

Results

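The liver X receptors (LXR) and a set of their known target genes were examined in neutrophils sorted from acetaminophen-injured livers. The 10 genes were chosen by name and taken from the deposited expression table by their symbols, and all 10 were among its 16047 genes. They comprised both receptors, Nr1h2 and Nr1h3, and the targets Abca1, Abcg1, Apoe, Pltp, Mylip, Lpcat3, Srebf1 and Scd2. The question was whether the targets changed together with Nr1h3.

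LXRα, encoded by Nr1h3, and LXRβ, encoded by Nr1h2, are nuclear receptors that are activated by oxidized cholesterol derivatives and bind DNA as partners of the retinoid X receptors. Their targets export cholesterol from the cell, lower its uptake, and drive the synthesis and remodelling of fatty acids and phospholipids. LXRβ is made in most tissues, whereas LXRα is abundant in liver, fat, intestine and macrophages.

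The strain label of both groups was C57BL/6, and the mice were male, 8 to 12 weeks old, with acetaminophen-induced liver injury (AILI). PBS mice, the controls, were injected with the buffer alone, and MC-21 mice received 400 µL of conditioned medium that held MC-21, an antibody against CCR2, at 29 µg/mL, in both groups from 12 h before acetaminophen and every 24 h. According to the paper, Ly6C-high monocytes need CCR2 to leave the bone marrow, and MC-21 removes them already from the blood. The MC-21 livers were labelled as lacking these infiltrating monocytes, and the control injection held no antibody and no conditioned medium. At 24 h following AILI, 50000 neutrophils (CD11b+, Ly6G+, Ly6C-low, CX3CR1-GFP-) were sorted from each liver, giving 4 PBS libraries (replicates 5 to 8) and 3 MC-21 libraries (replicates 2 to 4). The GFP in this gate relies on a reporter that the strain label did not name. The paper used both C57BL/6 and Cx3cr1gfp/+ reporter mice.

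Values are RPKM, that is reads scaled to the length of the transcript and to all mapped reads of the library. In a transcript of 1 kb, 1 RPKM stood for 1.59 to 3.96 reads, and MC-21 replicate 3 was the shallowest library. The 10 neutrophil markers summed to between 17958 and 30459 RPKM in PBS and between 27405 and 40804 RPKM in MC-21 neutrophils. Transcripts of other liver cells were measured too. Their 8 endothelial markers summed to between 1250 and 2623 RPKM in PBS and between 1284 and 2406 RPKM in MC-21 neutrophils. In sorted populations fewer cells of a type and less RNA per cell cannot be told apart.

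LXR binds pairs of GGTCA-like half-sites, and a pattern of this kind, NGGTNANNNNNGGTNA, was sought on both strands of promoter windows from RefSeq (GRCm38.p6), each from 250 bases before to 50 bases after a gene's start. The windows matched 8 of the 10 genes, with none for Abcg1 and Scd2. The pattern was found in 236 of 32851 windows (0.718%) and in 2 of the 13 windows of these 8 genes, those of Abca1 and Srebf1. The stricter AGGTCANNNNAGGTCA was found in 5 windows (0.015%), 0 of them of these genes. The 2 stretches are shown because they hold the receptor's kind of element in an efflux gene and in the main lipogenic factor. They lie at chr4:53159896-53160022 (Abca1) and chr11:60210578-60210713 (Srebf1), both on the minus strand, and are printed in the direction of the gene with the match in capitals.
Abca1: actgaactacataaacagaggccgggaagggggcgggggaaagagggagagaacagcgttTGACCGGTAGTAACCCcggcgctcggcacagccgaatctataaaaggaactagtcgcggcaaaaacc
Srebf1: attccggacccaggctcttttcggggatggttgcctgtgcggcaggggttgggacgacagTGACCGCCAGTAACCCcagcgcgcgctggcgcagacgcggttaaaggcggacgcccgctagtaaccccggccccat
The match ended 52 bases before the start in Abca1 and 167 bases before it in Srebf1. Read on the opposite strand, it was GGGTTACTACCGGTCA in Abca1 and GGGTTACTGGCGGTCA in Srebf1. A match is a description of the letters and not a measured binding site.

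Of the 10 genes, Nr1h3 was the one that fell with an adjusted p under 0.05. Apoe and Scd2 were also lower in every MC-21 library than in every PBS library, without reaching that threshold. Abcg1, Lpcat3, Srebf1, Mylip and Nr1h2 had overlapping groups, and Abca1 and Pltp were too low to test. Tests were made on log2(RPKM + 1) with limma, for 9594 genes, those whose mean over the 7 libraries reached 1 RPKM.

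**Figure D1:**
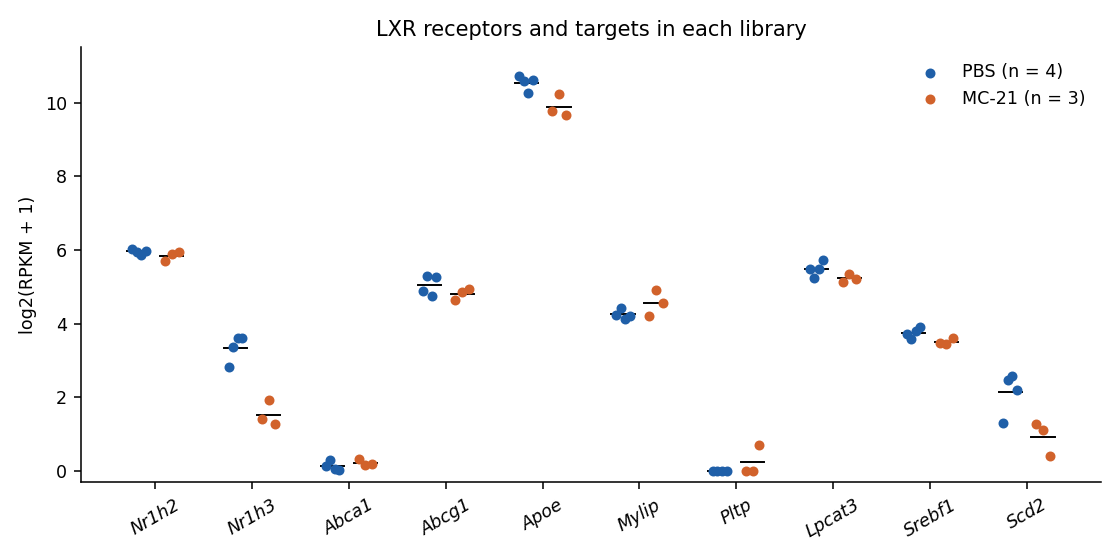
Level of each gene in each library, as log2(RPKM + 1). Points are libraries (PBS, 4; MC-21, 3) and bars are group means. Nr1h3, Apoe and Scd2 have groups that do not overlap, and Abca1 and Pltp lie near 0 in both groups.

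Nr1h3 (mm9, chromosome 2, 91024218 to 91042991, minus strand) was at 6.04, 9.29, 11.3 and 11.3 RPKM in PBS replicates 5 to 8 and at 1.65, 2.78 and 1.41 RPKM in MC-21 replicates 2 to 4. Every MC-21 library was below every PBS library, and PBS replicate 5 was the lowest of its group. The means were 9.47 ± 2.47 RPKM (SD, n = 4) and 1.95 ± 0.729 RPKM (SD, n = 3). On the log2(RPKM + 1) scale Nr1h3 fell by 1.82 (SE 0.26, adjusted p = 0.0172), a 3.54-fold lower level, and the means themselves differed by 4.86 times. The reads behind these values were few, 34, 63, 61 and 91 in PBS and 12, 9 and 8 in MC-21 neutrophils. The call rested on the whole set of libraries: the adjusted p was 0.0663 without MC-21 replicate 2, 0.07 without MC-21 replicate 4, 0.0571 without PBS replicate 7 and 0.0825 without PBS replicate 8. The difference itself was -2.02 to -1.69 whichever library was left out.

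Nr1h2 (chromosome 7, 51804986 to 51809321, minus strand) gave the larger part of the LXR receptor transcripts. It was at 64.7, 60.6, 57.6 and 62.4 RPKM in PBS and at 50.8, 58.7 and 60.1 RPKM in MC-21 neutrophils. The groups overlapped, and the difference was -0.12 on the log2 scale (95% interval -0.41 to 0.18, adjusted p = 0.716). After centring of each library on its median the difference was 0.05, so that no direction can be given for Nr1h2.

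The RPKM of both receptors came out as whole reads, and their implied transcript lengths were near equal, 2022 bases for Nr1h2 and 2036 bases for Nr1h3. The share of Nr1h3 among the reads of both receptors therefore needs no scaling between libraries. In PBS neutrophils it was 8.59%, 13.4%, 16.4% and 15.4%, with 95% Wilson intervals from 6.21% to 11.8% in replicate 5 and from 13.0% to 20.6% in replicate 7. In MC-21 neutrophils it was 3.17%, 4.55% and 2.31%, and its upper limits were 5.45%, 8.41% and 4.50%. The intervals cover counting error only. The groups did not overlap, and of the intervals those of PBS replicate 5 and MC-21 replicate 3 did. The mean share was 13.45% ± 3.48 (SD, n = 4) against 3.34% ± 1.13 (SD, n = 3), a difference of -10.1 percentage points (two-sided exact permutation test, p = 0.0571, where 0.0286 is the smallest p the 35 splits allow).

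**Figure D2:**
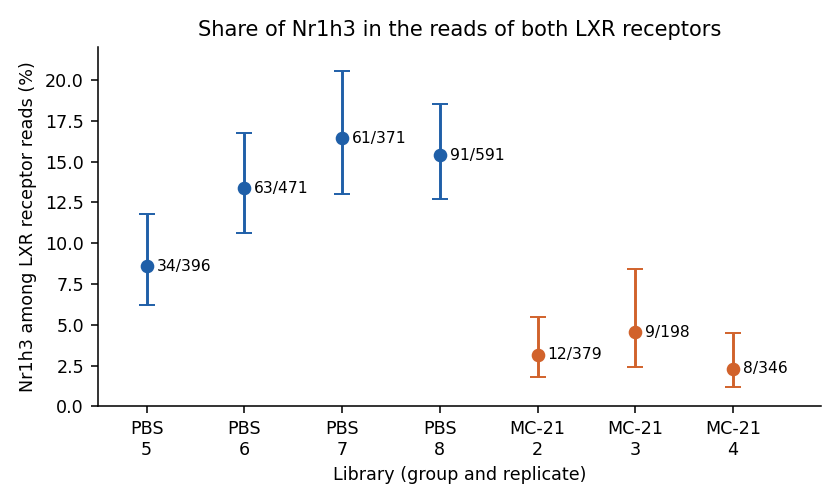
Nr1h3 as a percentage of the reads of both LXR receptors in each library, with 95% Wilson intervals (counting error only); the fractions give Nr1h3 reads over the reads of both. The 4 PBS libraries lie between 8.59% and 16.4% and the 3 MC-21 libraries between 2.31% and 4.55%.

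Among the genes of cholesterol efflux, Apoe was by far the most abundant and Abca1 and Pltp were nearly absent. Apoe (chromosome 7, 20281458 to 20284515, minus strand) encodes a secreted lipid carrier that accepts cholesterol at the cell surface. It was at 1674, 1531, 1216 and 1578 RPKM in PBS and at 876, 1202 and 803 RPKM in MC-21 neutrophils, a mean level above that of 99.7% of all genes in the table. The groups did not overlap, but PBS replicate 7 and MC-21 replicate 3 were close. The difference was -0.65 on the log2 scale (SE 0.17, 95% interval -1.04 to -0.27), with an unadjusted p of 0.00371 from limma and an adjusted p of 0.145.

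Apoe is also made in large amounts by hepatocytes and macrophages. The 12 hepatocyte markers summed to between 388 and 749 RPKM in PBS and between 381 and 576 RPKM in MC-21 neutrophils. By limma, 0 of the 10 that were tested had an adjusted p under 0.05, against 0.625% of all genes, a share at which 0 of 10 says little. At an unadjusted p under 0.05 there were also 0, against 14.7% of all genes. Their median difference was -0.04, against -0.15 for all genes. Apoe was 18.0 to 53.0 times as high as Alb, the albumin gene, per length. With Cd14 left out, the other 13 monocyte and macrophage markers summed to between 278 and 404 RPKM in PBS. In MC-21 neutrophils they summed to between 206 and 254 RPKM, so that these sums too did not overlap. This separation rested on Cd68, at 118 to 176 RPKM in PBS and 87.1 to 92.2 RPKM in MC-21 neutrophils. Without Cd68 as well, the sums of the remaining markers overlapped between the groups. Cd14, which neutrophils also make, took the opposite direction and brought the whole list to between 668 and 1205 RPKM in PBS and between 1303 and 1636 RPKM in MC-21 neutrophils. The part of these cells' transcripts in the Apoe and Nr1h3 values was not tested.

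Abcg1 (chromosome 17, 31194643 to 31252722, plus strand) encodes a transporter that passes cholesterol to mature high-density lipoprotein. It was at 28.6, 38.3, 26.2 and 37.9 RPKM in PBS and at 24.0, 27.9 and 29.5 RPKM in MC-21 neutrophils, resting on 258 to 873 reads per library. The groups overlapped, and the difference was -0.25 on the log2 scale (95% interval -0.66 to 0.16, adjusted p = 0.562).

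Abca1 (chromosome 4, 53043659 to 53172767, minus strand) encodes the transporter that loads cholesterol onto lipid-poor apolipoproteins, and is a standard readout of LXR activity in macrophages. It was at 0.106, 0.234, 0.0366 and 0.0246 RPKM in PBS and at 0.246, 0.122 and 0.140 RPKM in MC-21 neutrophils. These values stood for 3, 8, 1 and 1 reads in PBS and 9, 2 and 4 reads in MC-21 neutrophils, so that a difference was not detectable at this depth. The libraries were made from the 3′ end of transcripts, and RPKM divides by the whole length, here 10260 bases as implied by the values, which lowers the RPKM of so long a transcript. Pltp (chromosome 2, 164665018 to 164683211, minus strand), the gene of phospholipid transfer protein, was listed at 0 in MC-21 replicates 2 and 3, at 0.644 RPKM in MC-21 replicate 4, and at or next to 0 in all 4 PBS libraries. Its exons share 495 bases with those of Ctsa on the opposite strand, and whether reads were counted by strand was not stated.

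Mylip (chromosome 13, 45485111 to 45507388, plus strand) encodes IDOL, the ligase that marks the LDL receptor for degradation and so lowers cholesterol uptake. It was at 17.9, 20.6, 16.6 and 17.6 RPKM in PBS and at 17.4, 29.3 and 22.5 RPKM in MC-21 neutrophils. It was the one tested gene of the set with a positive difference, 0.30 on the log2 scale (95% interval -0.13 to 0.73, adjusted p = 0.511), and its groups overlapped. MC-21 replicate 3, the highest, held 139 reads of Mylip.

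The targets of fatty acid and phospholipid metabolism differed among themselves. Scd2 (chromosome 19, 44368166 to 44381354, plus strand), a stearoyl-CoA desaturase that makes monounsaturated fatty acids, was at 1.46, 4.57, 5.04 and 3.57 RPKM in PBS and at 1.44, 1.15 and 0.330 RPKM in MC-21 neutrophils. The groups were separated by the narrow gap between PBS replicate 5 and MC-21 replicate 2. The difference was -1.21 on the log2 scale (SE 0.35, 95% interval -1.99 to -0.42), with an unadjusted p of 0.00665 from limma and an adjusted p of 0.178. It rested on 22, 83, 73 and 77 reads in PBS and 28, 10 and 5 reads in MC-21 neutrophils. Of the 50-base words in Scd2 transcripts, 2.68% also occurred in Scd1.

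Srebf1 (chromosome 11, 60012591 to 60036083, minus strand) encodes SREBP1, the transcription factor that switches on fatty acid synthesis. It was at 12.3, 11.0, 12.9 and 14.2 RPKM in PBS and at 10.2, 9.85 and 11.3 RPKM in MC-21 neutrophils. Lpcat3 (chromosome 6, 124613045 to 124654436, plus strand), which places polyunsaturated fatty acids into phospholipids, was at 43.5, 36.8, 44.2 and 52.4 RPKM in PBS and at 34.1, 40.0 and 36.1 RPKM in MC-21 neutrophils. Both overlapped between the groups. The difference was -0.25 for Srebf1 (95% interval -0.60 to 0.11, adjusted p = 0.511) and -0.25 for Lpcat3 (95% interval -0.61 to 0.10, adjusted p = 0.497).

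**Figure D3:**
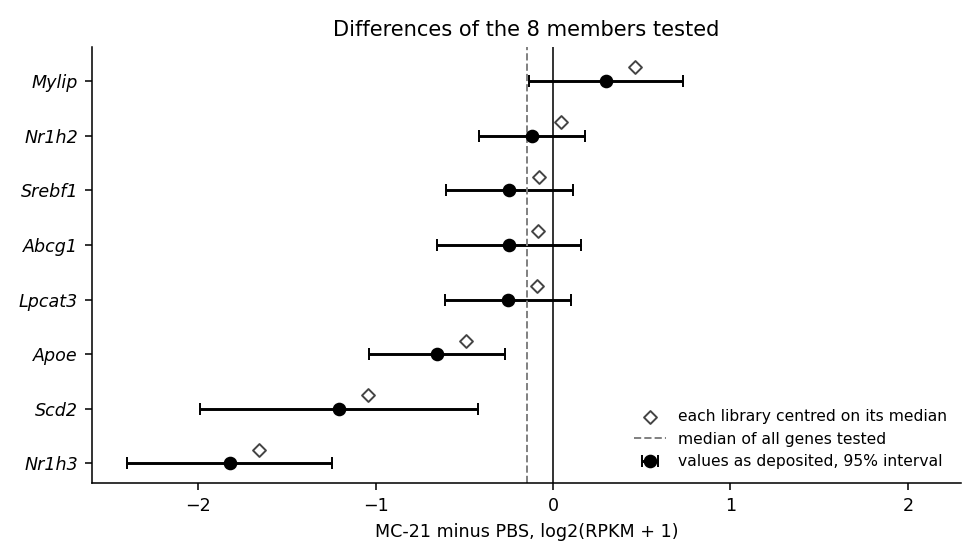
Difference between MC-21 and PBS neutrophils in log2(RPKM + 1) for the 8 genes tested. Black points are the differences with 95% intervals, open diamonds those after centring of each library on its median, the solid line is 0 and the dashed line is the median of all genes tested (-0.15). Nr1h3 lies at -1.82, and Nr1h2 changes sign with the centring.

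Of the 8 genes tested, 7 were lower in MC-21 neutrophils, as were 69.4% of all genes tested. After centring of the libraries on their medians, 47.3% of all genes were lower. The median difference of the 8 was -0.25 against -0.15 for all genes, and with the libraries centred -0.09 against 0.02. At an adjusted p under 0.05, 1 of the 8 was called, against 0.625% of all genes (0.427% lower and 0.198% higher). At an unadjusted p under 0.05, 3 of the 8 were lower and 0 were higher, against 11.2% and 3.59% of all genes, and the same 3 genes had groups that did not overlap, against 10.2% of all genes.

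To compare the targets with Nr1h3, the log2 value of Nr1h3 was subtracted from that of each gene in the same library. The rise of this difference from PBS to MC-21 neutrophils was 1.70 for Nr1h2, 1.57 for Abcg1, 2.12 for Mylip, 1.57 for Lpcat3 and 1.58 for Srebf1, each with the smallest p of the exact permutation test (0.0286, two-sided). It was 1.17 for Apoe and 0.62 for Scd2 (exact permutation p = 0.0571 for each). In all 7 genes the groups did not overlap in this difference, which was also the case for 89.4% of all genes. By limma, 6 of the 7 differed from Nr1h3 with an adjusted p under 0.05, as did 98.5% of all genes. Since every gene was compared with the same 7 values of Nr1h3, these tests depend on one another and their p-values are too small. Scd2 was the exception by limma, with an adjusted p of 0.133 and a 95% interval of -0.19 to 1.42, which includes 0, a change equal to that of Nr1h3, and reaches well above it. The size of the rise for Scd2 depended on the pseudocount, and with 0.1 in place of 1 it was 0.37 (adjusted p = 0.52 by limma). Mean RPKM was 3.76 times as high in PBS as in MC-21 neutrophils for Scd2 and 4.86 times for Nr1h3.

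Across libraries, the likeness of a gene to Nr1h3 was measured as the root mean square difference between both profiles over the 7 libraries, after each had been centred on its mean log2(RPKM + 1). Among 9593 genes Scd2 ranked 28 (0.43) and Apoe ranked 383 (0.67). The other genes of the set lay in the broad middle or the far end of the ranking. Lpcat3 ranked 2150, Srebf1 2546, Abcg1 2620, Nr1h2 4367 and Mylip 8286, while the median over all genes was 0.92.

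Within PBS neutrophils the order of the targets was not that of Nr1h3. PBS replicate 5, the lowest of its group in Nr1h3, was also the lowest in Scd2 but the highest in Apoe. PBS replicate 7, level with the highest in Nr1h3, was the highest in Scd2 but the lowest in Apoe, Abcg1 and Mylip. Lpcat3 and Srebf1 were highest in PBS replicate 8 and next in PBS replicate 7, as was Nr1h3, but lowest in PBS replicate 6.

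**Figure D4:**
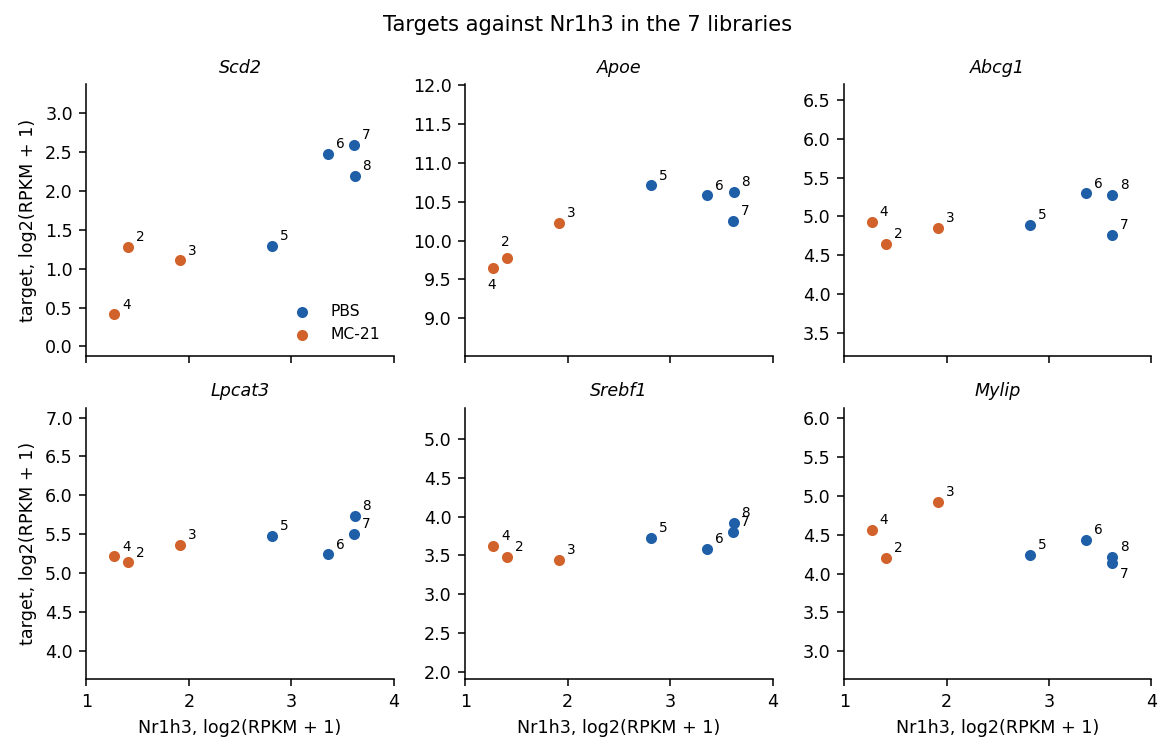
Log2(RPKM + 1) of 6 targets (vertical axes, each spanning the same 3.5 units) against that of Nr1h3 (horizontal axis) in the 7 libraries, numbered by replicate. Scd2 and Apoe are lower in every MC-21 library, while Abcg1, Lpcat3, Srebf1 and Mylip overlap between the groups.

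The 5 genes with the profile nearest to that of Nr1h3 were Pcdhgb2 (0.21), Aif1 (0.23), Axl (0.24), Fcgr1 (0.27) and Lrp1 (0.29), none of them in the LXR set. Fcgr1, the high-affinity IgG receptor, and Axl and Lrp1, receptors in the uptake of dying cells, are known from macrophages, as is Aif1. Axl was at 4.77, 4.37, 5.84 and 7.15 RPKM in PBS and at 1.05, 1.36 and 0.919 RPKM in MC-21 neutrophils, and its fall was 1.62 on the log2 scale (adjusted p = 0.0139). Fcgr1 was lowest in PBS replicate 5, with 6.15 RPKM, and reached 9.16, 11.9 and 13.3 RPKM in PBS replicates 6 to 8, against 1.08 to 1.46 RPKM in MC-21 neutrophils. Pcdhgb2 belongs to a protocadherin cluster whose transcripts share exons, so that its reads may be those of a neighbouring gene.

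Of the 14 monocyte and macrophage markers, 13 were tested. Fcgr1, Trem2 and Ccr2 fell with an adjusted p under 0.05, as did 0.427% of all genes. Of the 13, 11 were lower and 6 were lower without overlap, against 69.4% and 10.2% of all genes, and the median difference was -0.73 against -0.15 for all genes. Ccr2, the receptor that MC-21 binds, was at 1.91 to 3.26 RPKM in PBS neutrophils and at 0.390, 0 and 0.200 RPKM in MC-21 neutrophils. Siglec1 was at or under 0.294 RPKM in every library. Adgre1 and Mrc1 of the same list overlapped between the groups. Adgre1, which encodes F4/80, was at 7.36, 21.9, 13.2 and 9.18 RPKM in PBS and at 22.2, 18.8 and 3.88 RPKM in MC-21 neutrophils, a difference of 0.02. Mrc1, the mannose receptor, was at 13.8, 27.1, 17.7 and 19.2 RPKM in PBS and at 26.5, 27.3 and 6.02 RPKM in MC-21 neutrophils, a difference of -0.18. The 9 Kupffer cell markers summed to between 201 and 316 RPKM in PBS and between 166 and 194 RPKM in MC-21 neutrophils, without an overlap. Most of that sum was Cdh5, which endothelial cells make as well, and without Cdh5 the sums overlapped between the groups. Of the 6 Kupffer markers tested, 0 had groups that did not overlap, against 13.3% of all genes. Of the defining Kupffer markers, Timd4 and Vsig4 reached at most 0.691 and 2.10 RPKM. Clec4f lay between 4.07 and 10.2 RPKM in PBS and between 2.25 and 8.38 RPKM in MC-21 neutrophils. Marco lay between 32.2 and 41.1 RPKM in PBS and between 18.8 and 33.6 RPKM in MC-21 neutrophils. Both overlapped between the groups. Of the 6 Kupffer markers tested, 0 had an adjusted p under 0.05 in the limma fit, and 2 were lower at an unadjusted p under 0.05, against 11.2% of all genes. Since Fcgr1, Trem2 and Ccr2 were named for their fall in MC-21 neutrophils, that they share the direction of Nr1h3 was fixed by the choice. The part of monocytes, macrophages and Kupffer cells in the fall of Nr1h3 was not tested. Of the other marker lists, 1 of 10 neutrophil markers rose with an adjusted p under 0.05, against 0.198% of all genes. It was Cd177 (by 1.66 on the log2 scale, adjusted p = 0.0415), a call that was lost in 9 of 16 alternatives. At an unadjusted p under 0.05 in the limma fit, 4 of the 10 neutrophil markers were higher and 0 lower, against 3.59% and 11.2% of all genes. Of the 10, 8 were higher, and the median difference was 0.47 against -0.15 for all genes. Of 8 endothelial and 5 lymphocyte and dendritic cell markers tested, 0 had an adjusted p under 0.05 in the limma fit. At an unadjusted p under 0.05, 1 and 2 were lower, against 11.2% of all genes. The smallest p of these lists were those of Eng (difference -0.57, adjusted p = 0.317, groups overlapping) and Cd3d (difference -0.55, adjusted p = 0.304, groups not overlapping), and among the hepatocyte markers that of Ttr (difference -0.38, adjusted p = 0.651, groups overlapping).

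A further 16 LXR targets were looked up, of which 15 were in the table and 9 were tested. None had an adjusted p under 0.05 in the limma fit, and 2 were lower at an unadjusted p under 0.05, against 11.2% of all genes. The median difference was -0.32, against -0.15 for all genes. Lpl, the lipoprotein lipase, had the smallest p. It was at 6.97, 24.0, 27.1 and 13.3 RPKM in PBS and at 3.80, 3.72 and 2.40 RPKM in MC-21 neutrophils, a difference of -1.98 on the log2 scale (adjusted p = 0.073), and it too was lowest in PBS replicate 5. Cd5l, the other of the 2, is both an LXR target and a Kupffer cell marker, and its difference was -0.67 (adjusted p = 0.285).

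Of the apolipoprotein genes beside Apoe on chromosome 7, Apoc1 and Apoc4 did not share its separation of the groups, and Apoc2 missed it by a near tie. Apoc1, which lies in the same cluster, was at 175, 232, 149 and 214 RPKM in PBS and at 182, 255 and 147 RPKM in MC-21 neutrophils, a difference of 0.00 (95% interval -0.49 to 0.49). Apoc4 differed by 0.03 (adjusted p = 0.96) and overlapped between the groups. Apoc2 differed by -0.61 (95% interval -1.30 to 0.08, adjusted p = 0.398), where Apoe differed by -0.65. PBS replicate 7, the lowest of its group in Apoe, stood out in Apoc2 at 173 RPKM. PBS replicates 5, 6 and 8 were at 75.4, 76.8 and 85.1 RPKM of Apoc2. The Apoc2 groups overlapped only in MC-21 replicate 4 and PBS replicate 5, both at 75.4 RPKM. Smpdl3a, a phosphodiesterase and LXR target of macrophages, was high in PBS replicates 6 and 7 (16.8 and 25.2 RPKM) and MC-21 replicate 2 (16.6 RPKM), and between 1.82 and 2.96 RPKM in the other libraries of both groups.

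Of 15 partners and cofactors of LXR, 12 were tested, of which 0 had an adjusted p under 0.05 in the limma fit. Of the 12, 1 was lower at an unadjusted p under 0.05, against 11.2% of all genes. Their median difference was -0.09, against -0.15 for all genes. Rxra, the retinoid X receptor that pairs with LXR, was at 9.92, 10.2, 9.22 and 14.6 RPKM in PBS and at 6.50, 8.74 and 7.43 RPKM in MC-21 neutrophils. The groups did not overlap, with a difference of -0.47 (95% interval -0.92 to -0.03, adjusted p = 0.319). Rxrb differed by 0.01, and Ncoa3, a coactivator, by 0.46 (adjusted p = 0.344). Ncoa3 was higher in every MC-21 library than in every PBS library. Of the 12, 2 (Rxra and Med1) were lower and 1 (Ncoa3) higher without overlap, against 10.2% and 3.1% of all genes.

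Enzymes that make or remove LXR ligands were mostly low. A list of 8 such enzymes had 7 with a value, of which 3 were tested, and Ch25h, which makes 25-hydroxycholesterol, was higher in every MC-21 library. It was at 146, 108, 87.6 and 54.0 RPKM in PBS and at 451, 217 and 411 RPKM in MC-21 neutrophils, a difference of 1.87 on the log2 scale with an adjusted p of 0.0519, or 0.0391 after centring of the libraries. Cyp27a1, which makes 27-hydroxycholesterol, had the opposite direction, at 2.80, 3.10, 3.50 and 2.48 RPKM in PBS and at 1.01, 1.62 and 1.86 RPKM in MC-21 neutrophils (difference -0.68, adjusted p = 0.202).

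In the wider cholesterol pathway 0 genes had an adjusted p under 0.05 in the limma fit. Of 21 genes of cholesterol synthesis and LDL uptake 12 were tested, and 0 had an unadjusted p under 0.05, against 14.7% of all genes. Their median difference was -0.12, against -0.15 for all genes. Scap, the SREBP escort protein, had the smallest p (difference -0.39, adjusted p = 0.425). All 12 genes of intracellular cholesterol handling were tested, with a median of -0.17. At an unadjusted p under 0.05, 1 was lower and 1 higher, against 11.2% and 3.59% of all genes. Npc2, which carries cholesterol out of lysosomes, had the smallest p (difference -0.36, adjusted p = 0.319). Of 21 other nuclear receptors of lipid metabolism 8 were tested and all 8 were lower, 3 of them at an unadjusted p under 0.05, against 69.4% and 11.2% of all genes, with a median of -0.34. After centring of the libraries, Rara (0.14) and Esrra (0.01) of these 8 were higher. Nr1d1, the clock repressor REV-ERBα, was at 8.57, 4.60, 5.80 and 8.26 RPKM in PBS and at 2.41, 2.43 and 1.38 RPKM in MC-21 neutrophils (difference -1.33, adjusted p = 0.0572).

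**Figure D5:**
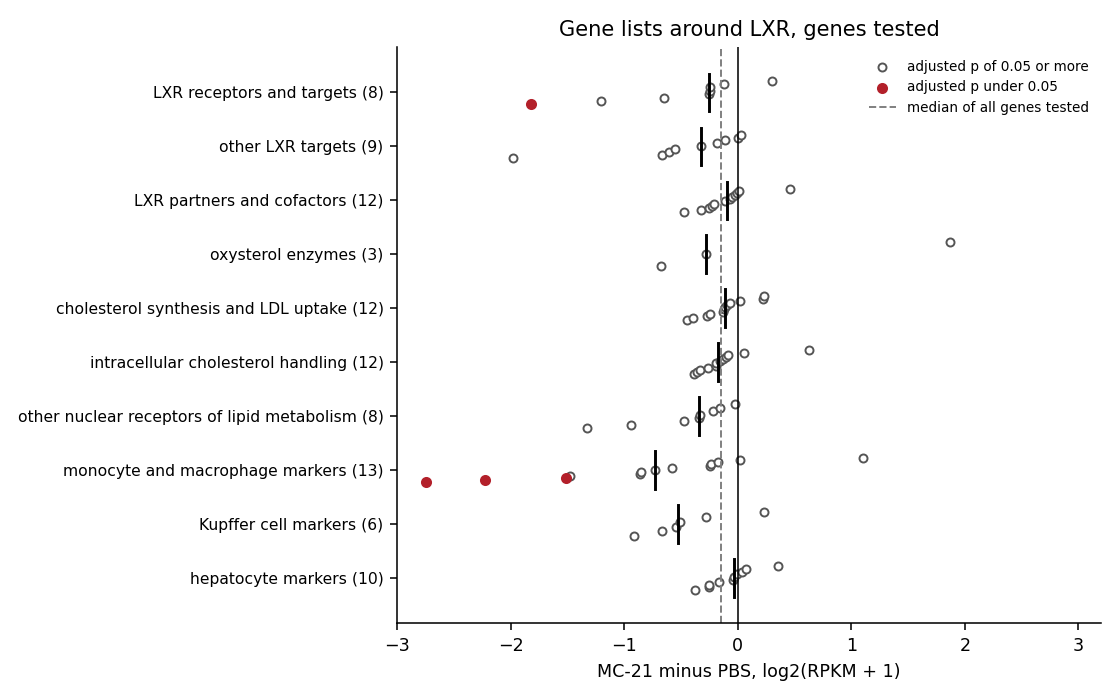
Difference between MC-21 and PBS neutrophils in log2(RPKM + 1) for the tested genes of 10 gene lists, with the number tested in brackets. Each point is a gene, filled where the adjusted p is under 0.05, black bars are list medians and the dashed line is the median of all genes tested (-0.15). Filled points are Nr1h3 and, among the monocyte and macrophage markers, Fcgr1, Trem2 and Ccr2.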

How the data were processed

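The 3′ RNA-seq libraries of 7 mice were sequenced by the authors on an Illumina NextSeq 500, mapped to mm9 with HISAT 0.1.5, converted with SAMtools, and deposited as RPKM values per gene from Partek Genomics Suite 6.6. The annotation and the handling of strand, repeated mapping and molecular barcodes are not given in the sources used here. The labels number the replicates without naming a mouse. They were taken as separate mice because the paper states the number of sorted cells per liver.

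Differences are MC-21 minus PBS on log2(RPKM + 1), which understates changes of low genes, for genes averaging 1 RPKM or more, tested two-sided with limma 3.58.1 (eBayes with a trend, R 4.3.3) and Benjamini-Hochberg adjustment over all 9594. Single values had a two-sided exact permutation test over 35 splits, 8 tests in all, not adjusted. Whole reads were recovered from the smallest steps of RPKM between libraries, for 6 of the 10 genes, within 0.001 of a whole number (tolerance 0.1). No count test was run, since whole reads were recovered for part of the genes. Simulated data were used to test the limma fit.

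Genes and lists were chosen with earlier results of these data known. The genes named are the 10 of the set, the genes of each list with an adjusted p under 0.05 or else the smallest p, and the 5 profiles nearest to Nr1h3. Further genes of the lists were named after their values were seen, and the values of 1 gene are not reported here. Coordinates come from GENCODE M1 (mm9), promoters from RefSeq.

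Alternatives were a pseudocount of 0.1, no filter, an average of 5 RPKM or more, quantile normalization, centring on the library median, limma without a trend, t-tests, the study's cutoffs (unadjusted p under 0.05, change of 2-fold or more), and leaving out each library. Tables and plots used Python 3.11.15, pandas 2.3.3, numpy 2.4.6, scipy 1.17.1 and matplotlib 3.10.9.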

Additional observations from a re-analysis of the deposited data

How the results depend on the processing

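Nr1h3 was lower in MC-21 neutrophils under every alternative, by 1.65 to 2.24 as log2 values (adjusted p from 0.0135 to 0.275). It missed the threshold without a filter on low values (-1.82, adjusted p = 0.0925), with t-tests adjusted over all genes (-1.82 on log2 values and -1.83 on RPKM), and without 4 of the 7 libraries in turn (-2.02 to -1.69 over all leave-outs). The count of called genes among the 10 was therefore 0 without a filter and with both t-tests, 2 (Nr1h3 and Scd2, -1.21) at an unadjusted p under 0.05 with a 2-fold change, and 0 to 1 when a library was left out. Over all genes the count was 60, and 6 without a filter, 4 and 5 with the t-tests on log2 and RPKM values, 259 at the unadjusted cutoffs and 9 to 102 with a library left out (19, 35 and 18 without MC-21 replicates 2, 3 and 4, and 102, 14 and 9 without PBS replicates 6, 7 and 8). Nr1h2 turned to 0.0455 when each library was centred.

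Among the lists, the unadjusted cutoffs called 1 further LXR target, 1 oxysterol enzyme, 1 other nuclear receptor and 5 monocyte and macrophage markers. The oxysterol count was also 1 with a mean of at least 5 RPKM and with centring. The neutrophil marker count was 0, and that of monocyte and macrophage markers 0, without a filter and with both t-tests, and the former also in limma without a trend. With a library left out, counts were 0 to 1 for further LXR targets (1 without PBS replicate 5), oxysterol enzymes (1 without MC-21 replicate 3 or PBS replicate 5), other nuclear receptors (1 without PBS replicate 6) and neutrophil markers (0 without any MC-21 library, PBS replicate 5 or PBS replicate 8), and 1 to 4 for monocyte and macrophage markers (1 without PBS replicate 8). The number of genes whose change differed from that of Nr1h3 by limma was 6 in all 14 alternatives run, and 5 by the exact permutation test, which was added after the data were seen. The share of Nr1h3 among receptor reads differed by -11.7 to -9.11 percentage points with a library left out. The cause of these changes was not tested. No paired analysis was possible because the replicate numbers 5 to 8 and 2 to 4 are not shared between the groups. Nr1h3, Scd2 and Abca1 rest on fewer than 100 reads in every library.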
